A study of Homo sapiens with 4 samples.

Results

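The genes described here serve peptide presentation by major histocompatibility complex (MHC) class I molecules. They are HLA-B, HLA-C, HLA-E and HLA-F, which encode class I heavy chains, B2M, TAP1, TAP2, TAPBP and NLRC5. They were chosen by name, as 9 of 19974 protein-coding genes on chromosomes 1 to 22 and X, and all 9 matched the RefSeq gene table. Every peak from 5000 bp before the lower-coordinate end of a gene to 5000 bp after its higher-coordinate end was assigned to it. Other class I genes of chromosome 6 are not analysed here, except that HLA-G, MICA and MICB are counted among the pathway genes. RNA polymerase II (Pol II) was profiled by chromatin immunoprecipitation and sequencing (ChIP-seq) in U2OS, a human osteosarcoma cell line. The cells had received an siRNA against NKAP (knockdown, genotype label NKAP KD) or a control siRNA for 48 h, and were fixed in 1% formaldehyde for 10 min. All samples came from the same line and carry no other listed alteration. Each group held 1 Pol II ChIP library, so differences were not tested and rest on 1 library a side. Depletion of NKAP cannot be checked from these peak lists.

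A class I molecule is a heavy chain bound to the invariant light chain beta-2-microglobulin, the product of B2M, and to a short peptide. TAP1 and TAP2 form the transporter that brings peptides from the cytosol into the endoplasmic reticulum, and TAPBP encodes tapasin, which holds the transporter and an empty class I molecule together until a peptide is loaded. NLRC5 encodes a transactivator that raises the transcription of class I heavy-chain genes and B2M through a conserved promoter module. RFX factors, CREB/ATF factors and NF-Y bind this module. Interferon and NF-kB signalling are further known inducers, and most nucleated cells display class I molecules on their surface.

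The promoters of 4 genes are shown because the results turn on them: that of B2M lay under a peak in both lists, that of HLA-C touched a peak in the control list, and those of HLA-B and TAPBP lay under none. Each is the RefSeq window (GRCh38.p14) from 250 bases before to 50 bases after the transcription start, written 5′ to 3′ on the strand of the gene. Capitals mark matches on either strand to any of 6 motifs. The Y box, which NF-Y binds, was searched as CCAAT, and the core of the X2 box, which CREB/ATF factors bind, as TGACG. The core of the interferon-stimulated response element (ISRE) was searched as GAAA and, after any 2 bases, a further GAAA. The NF-kB core was searched as GGGA and, after any 4 bases, a final CC pair. The GC box of the Sp1 family was searched as GGGCGG, and the element that positions the start of many tissue-specific genes, the TATA box, as TATAAA. Where 2 matches overlap, their capitals run together.
B2M, chr15:44711267-44711566, plus strand: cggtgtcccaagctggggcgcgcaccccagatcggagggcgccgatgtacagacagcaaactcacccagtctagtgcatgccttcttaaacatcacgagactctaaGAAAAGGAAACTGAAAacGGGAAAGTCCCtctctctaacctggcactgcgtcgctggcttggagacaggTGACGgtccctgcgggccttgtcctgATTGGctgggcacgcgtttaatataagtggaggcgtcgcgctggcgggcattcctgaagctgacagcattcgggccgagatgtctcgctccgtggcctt
HLA-C, chr6:31272043-31272342, minus strand: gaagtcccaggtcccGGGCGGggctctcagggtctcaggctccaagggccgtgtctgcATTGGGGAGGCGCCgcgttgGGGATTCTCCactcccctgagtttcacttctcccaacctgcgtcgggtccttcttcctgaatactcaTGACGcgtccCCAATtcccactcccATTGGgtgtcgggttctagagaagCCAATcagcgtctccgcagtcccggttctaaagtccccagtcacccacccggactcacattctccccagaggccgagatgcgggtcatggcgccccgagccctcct
HLA-B, chr6:31357130-31357429, minus strand: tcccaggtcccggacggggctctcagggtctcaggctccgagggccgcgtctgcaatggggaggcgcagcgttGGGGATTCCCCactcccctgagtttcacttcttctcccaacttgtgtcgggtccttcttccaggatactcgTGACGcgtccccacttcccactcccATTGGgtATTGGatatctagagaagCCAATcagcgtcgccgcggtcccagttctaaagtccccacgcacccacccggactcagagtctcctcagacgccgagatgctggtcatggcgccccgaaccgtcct
TAPBP, chr6:33314029-33314328, minus strand: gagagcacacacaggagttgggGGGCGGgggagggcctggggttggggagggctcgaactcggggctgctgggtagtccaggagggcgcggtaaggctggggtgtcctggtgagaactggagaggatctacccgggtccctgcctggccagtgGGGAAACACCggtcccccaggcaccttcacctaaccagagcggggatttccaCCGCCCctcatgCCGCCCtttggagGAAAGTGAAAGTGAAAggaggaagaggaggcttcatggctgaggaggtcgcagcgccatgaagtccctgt

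The promoters of B2M, HLA-B and HLA-C each held matches to TGACG and, closer to the start, to CCAAT. In B2M, TGACG began 75 bases and CCAAT (as ATTGG) 49 bases before the start. In HLA-B, TGACG began 106 bases before the start and matches to CCAAT began 81, 74 and 56 bases before it. In HLA-C, TGACG began 105 bases before the start, with matches to CCAAT at 192, 95, 80 and 56 bases. The promoters of HLA-B and HLA-C were 88.5% identical over their alignment (269 of 304 columns). The rarer ISRE core had 2 overlapping matches in B2M, 144 and 138 bases before the start, and 2 overlapping matches in TAPBP, 20 and 14 bases before it. TAP1, TAP2 and HLA-F also held an ISRE core in a promoter window. The HLA-B and HLA-C windows held no match to this pattern, and forms of the element with other letters were not searched. Among all 22156 windows of protein-coding genes, 34.6% held the Y box, 27.9% the X2 core, 3.17% the ISRE core, 29.0% the NF-kB core, 56.3% the GC box and 9.46% the TATA box. A match describes the letters and does not show that a factor binds there. The table gave windows for 7 of the 9 genes, and HLA-E and NLRC5 were without one.

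The lists of all peaks set the scale. The knockdown list held 26387 peaks and the control list 36345 on the chromosomes used, and the estimated depth of the knockdown library was 0.857 of that of the control. The reads at each summit were recovered from the deposited fold enrichment and p-value. Scaled reads are these divided by the relative depth. The intervals given with reads are 95% exact Poisson intervals and, like all intervals here, cover counting error only. A library averages over many cells, so fewer cells with Pol II at a gene and less Pol II per cell cannot be told apart. As a check of the cell line, the osteoblast lineage genes had a gene-end peak (within 1000 bp of either end) at 4 of 9 in each list (SPARC, COL1A1, SP7 and BGLAP). Over all protein-coding genes this share was 56.5% in the knockdown list and 59.9% in the control list, so the count does not set the lineage genes apart. With peaks within 5000 bp of the gene the count was 6 of 9 in each list, RUNX2 and ALPL included. Over all protein-coding genes the share by this rule was 66.5% in the knockdown list and 70.1% in the control list. This count does not set the lineage genes apart either. The epithelial genes had a gene-end peak at 2 of 6 in each list (KRT8 and KRT18, neighbours that share 1 peak). Within 5000 bp the count was 3 of 6 in the knockdown list and 4 of 6 in the control list. CLDN4 was in both and CDH1 in the control list only, while EPCAM and ESRP1 had no peak by either rule. The lymphocyte genes had a gene-end peak at 0 of 8 in each list, and a peak within 5000 bp at 4 of 8 in the knockdown list and 3 of 8 in the control list, with PTPRC, MS4A1 and CD79A in both. Among 7 dendritic cell and macrophage genes, CD68 and CD74 had a gene-end peak in the knockdown list and CD68 in the control list. Within 5000 bp the count was 3 of 7 in the knockdown list and 2 of 7 in the control list, with CSF1R in both.

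Pol II peaks were found at B2M, TAPBP and NLRC5 in both libraries and at HLA-C and HLA-E in the control library only, while HLA-B, HLA-F, TAP1 and TAP2 had none in either. A peak thus lay in the window of 3 of the 9 genes in the knockdown list and 5 of 9 in the control list. Over all protein-coding genes the same windows held a peak for 66.5% in the knockdown list and 70.1% in the control list. The same 3 and 5 genes had a gene-end peak, against 56.5% and 59.9% of all protein-coding genes. The 2 genes in the control list only compare with 5.34% of all protein-coding genes by the window rule and 4.86% by the gene-end rule. The 3 genes in both lists compare with 64.7% and 55% by these rules, and the 0 genes in the knockdown list only with 1.74% and 1.46%. With 9 genes, the shares of 33.3% (95% exact binomial interval 7.49 to 70.1) and 55.6% (21.2 to 86.3) are loosely bounded.

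**Figure D1:**
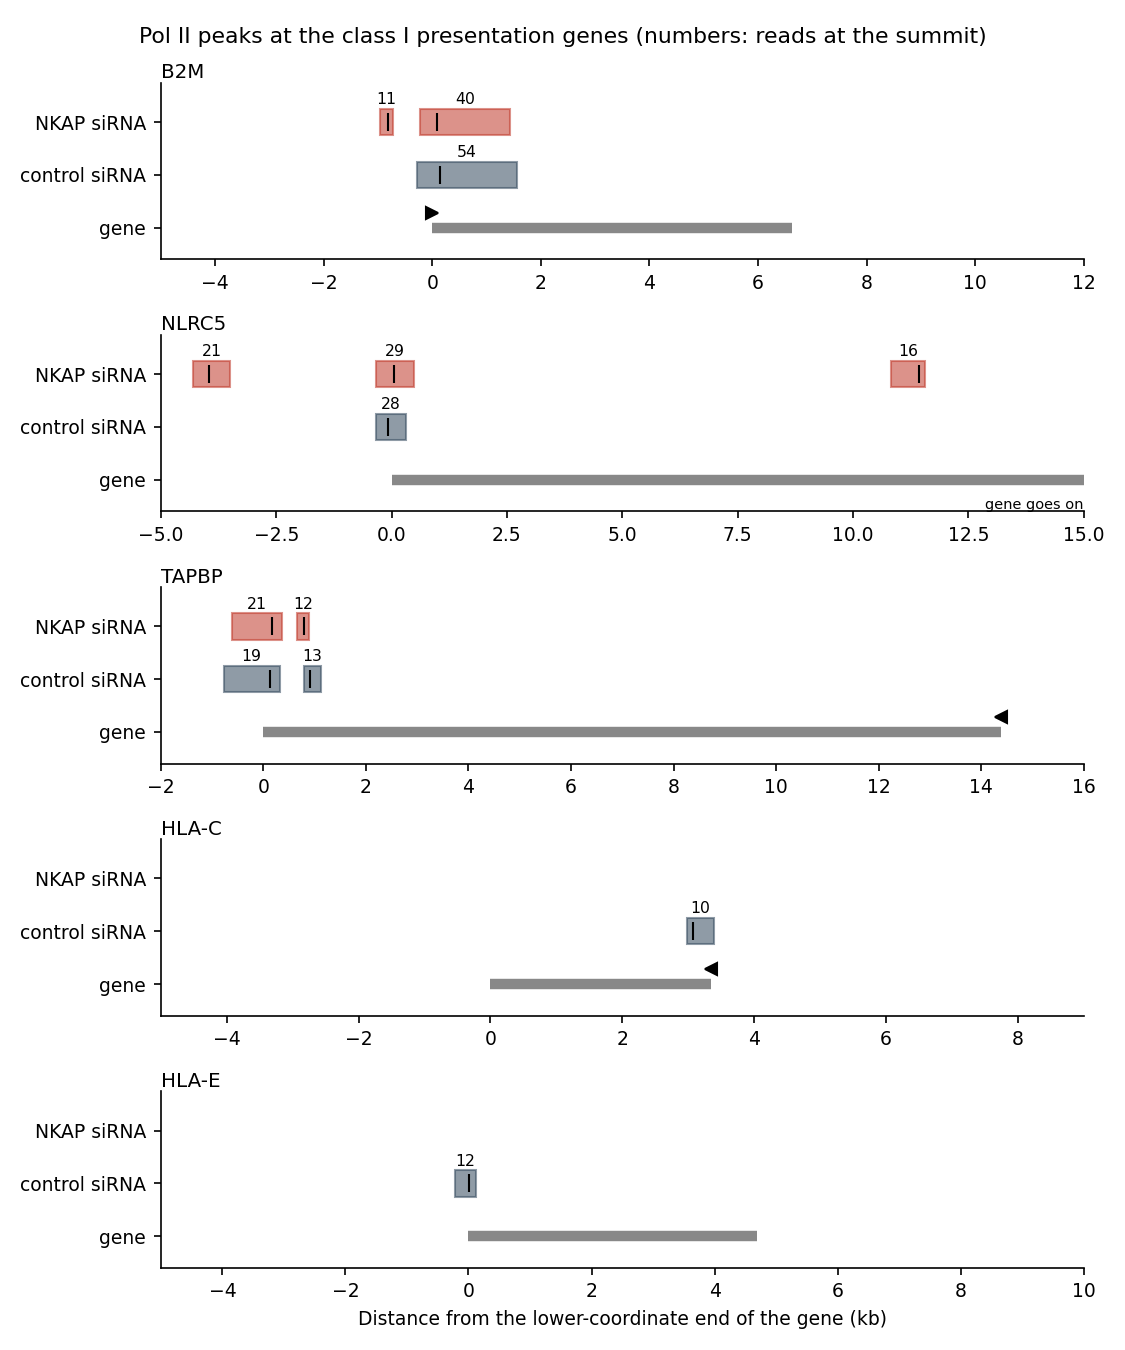
Peaks at the 5 class I presentation genes that had any. The x axis is the distance in kb from the lower-coordinate end of each gene, coloured boxes are peaks (NKAP siRNA above control siRNA), ticks are summits, numbers are reads at the summit, grey bars are genes and arrowheads are RefSeq starts, drawn where the table gave a strand. B2M has its widest peak at the start in both libraries, the TAPBP peaks lie at the end opposite its start, and HLA-C and HLA-E have a box in the control library only.

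Among the genes of the antigen-presenting chains, the strongest Pol II peak lay at B2M. Its start, on chromosome 15 (gene from 44711517 to 44718145, plus strand), lay under a peak of 1658 bp in the knockdown library and 1830 bp in the control library. The summits, 87 and 140 bp inside the gene, were 53 bp apart. The knockdown peak covered 275 of the 300 bases of the promoter window printed above, and the control peak all 300. The summit had 40 reads (28.6 to 54.5) in the knockdown library and 54 (40.6 to 70.5) in the control library. At the control depth the knockdown summit came to 46.7 reads, a ratio of 0.864 (95% interval 0.560 to 1.33, from the exact binomial interval of the reads). The interval holds 1, so no difference at B2M was detectable at this depth. The deposited folds were 20.1 and 25.7. The peak stood above 92.1% of the knockdown peaks and 93.9% of the control peaks by p-value, each within its own list. It also overlapped the higher-coordinate end of PATL2 (44711390), a neighbouring gene that reaches into the printed promoter window. Both summits lay inside B2M and outside PATL2, but the peak covers an end of each gene and cannot be assigned to B2M alone.

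The knockdown list held a second, small peak at B2M, 225 bp wide with its summit 810 bp before the start, inside PATL2. It had 11 reads (5.49 to 19.7) and a fold of 5.92. The control list had no peak under it, and the edge of the nearest control peak, the main B2M peak, lay 455 bp away. Of the 1117 knockdown peaks with 11 reads, 54.5% overlapped a control peak.

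The heavy-chain genes had weak peaks or none. At HLA-E (chromosome 6, 30489509 to 30494194), which encodes a chain that shows signal peptides of other class I molecules to natural killer cells, the knockdown list had no peak, with the nearest 62338 bp away. The control list had a peak of 348 bp with its summit 4 bp from the lower-coordinate end, with 12 reads (6.20 to 21.0) and a fold of 6.07. At HLA-C (31268749 to 31272092, minus strand), a classical chain and a main ligand of killer cell receptors, the knockdown list had no peak, with the nearest 128221 bp away. The control list had a peak of 414 bp with its summit 270 bp inside the gene from its start, with 10 reads (4.80 to 18.4) and a fold of 5.14. It reached over 100 of the 300 promoter bases.

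Both were among the weaker peaks of the control list, above 30.9% of its peaks by p-value at HLA-E and above 11.6% at HLA-C. Control peaks with as few reads were seldom overlapped by a knockdown peak anywhere in the genome. A knockdown peak overlapped 16.2% (14.8 to 17.7) of the 2502 control peaks with 12 summit reads and 9.41% (7.79 to 11.2) of the 1158 with 10. In the other direction the share was higher, and a control peak overlapped 56.4% (54.0 to 58.9) of the 1600 knockdown peaks with 12 reads. With lists brought to equal numbers of strongest peaks, HLA-C had no peak in either list, and the counts were 3 of 9 genes in the knockdown list and 4 of 9 in the control list. A region without a peak can hold Pol II below the threshold of the authors' caller.

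HLA-B (31353875 to 31357179), the other classical chain among these genes, had no peak in its window in either list. The nearest peak lay 43134 bp away in the knockdown list and 42513 bp away in the control list. HLA-F (29723434 to 29738532), a nonclassical chain, had none within 587888 bp in the knockdown list and within 95512 bp in the control list. HLA-B and HLA-C are related genes, and whether reads of one were placed on the other was not tested.

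Neither transporter gene had a peak. TAP1 (32845209 to 32853704) and TAP2 (32821831 to 32838739) lie close together, with PSMB8 between them. The nearest peak was 114524 bp from TAP1 in the knockdown list and 114373 bp in the control list. It was 129489 bp from TAP2 in the knockdown list and 129338 bp in the control list. Neither list had a gene-end peak at PSMB8 or at PSMB9, immunoproteasome subunit genes, the latter on the far side of TAP1. None lay at HLA-DOB, the class II gene on the far side of TAP2.

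TAPBP (33299694 to 33314078, minus strand) had 2 peaks in each list, all at the end opposite its RefSeq start, and none at the start. The wider peak had 21 reads (13 to 32.1) and a fold of 10.2 in the knockdown library, against 19 reads (11.4 to 29.7) and a fold of 9.34 in the control library. The depth-scaled ratio was 1.29 (0.660 to 2.54). The smaller peak had 12 reads in the knockdown library and 13 in the control library, a depth-scaled ratio of 1.08 (0.449 to 2.56). Both intervals hold 1. These peaks lay within RGL2 as well, a gene of Ral signalling whose annotated span overlaps the end of TAPBP. The wider summit was 919 bp in the knockdown list and 874 bp in the control list from an RGL2 start, so the peaks cannot be assigned to either gene. The promoter of TAPBP with its overlapping ISRE cores lay under no peak, and neither neighbour on that side, ZBTB22 or DAXX, had a peak at a gene end.

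NLRC5, the regulator (chromosome 16, 56989557 to 57083520), had 3 peaks in the knockdown list and 1 in the control list. At the lower-coordinate end, the knockdown peak had 29 reads (19.4 to 41.6) and the control peak 28 (18.6 to 40.5), a depth-scaled ratio of 1.21 (0.694 to 2.11). The interval holds 1. The deposited fold there ran the other way, at 6.96 in the knockdown list and 11.5 in the control list. The caller's local background, which enters the fold, was 3.00 in the knockdown list and 1.53 in the control list. At the full depth of the knockdown library the former was 3.24 reads. The peak also touched the end of LOC124903696, an adjacent long noncoding RNA gene.

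The other 2 knockdown peaks at NLRC5 had no control counterpart. One lay 3967 bp outside the lower-coordinate end, within LOC124903696, with 21 reads (13 to 32.1), or 24.5 at the control depth, and a fold of 9.23, and the nearest control peak was 3147 bp away. The other lay 11427 bp inside the gene with 16 reads (9.15 to 26.0), or 18.7 at the control depth, and a fold of 7.91, and the nearest control peak was 10527 bp away. Of knockdown peaks with the same summit reads, 92.6% (90.5 to 94.3, of 807) and 76.5% (74.2 to 78.7, of 1412) overlapped a control peak. Over all chromosomes used, the knockdown list had 0.726 times as many peaks as the control list, and at NLRC5 the count ran the other way. Whether Pol II differed at these 2 sites cannot be tested with 1 library a group.

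**Figure D2:**
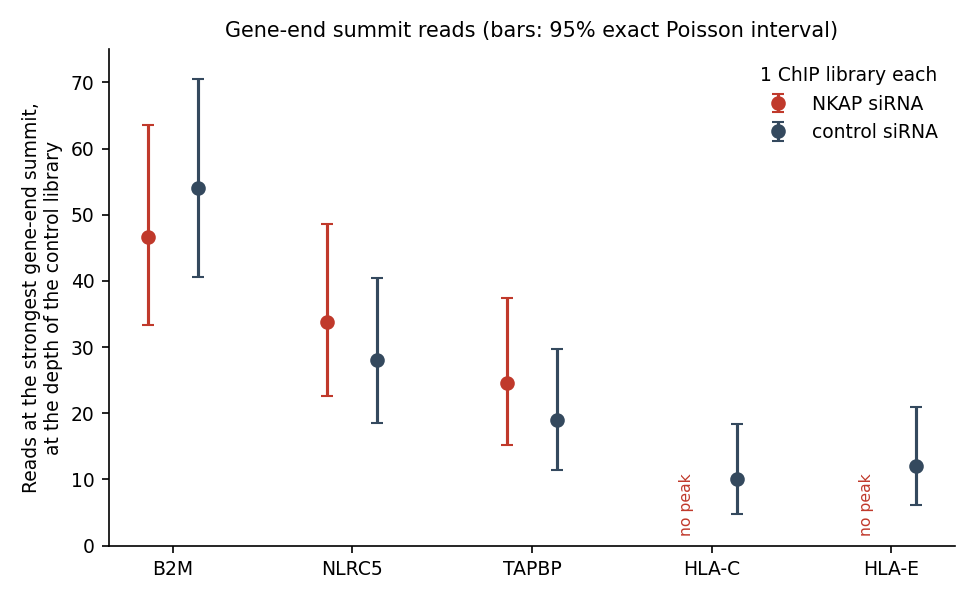
Reads at the strongest summit within 1000 bp of a gene end, scaled to the depth of the control library (y axis), for the 5 genes with a peak, NKAP siRNA left of control siRNA. Bars are 95% exact Poisson intervals and cover counting error only. The intervals of the libraries overlap at B2M, NLRC5 and TAPBP, and HLA-C and HLA-E have no knockdown peak.

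Over the windows of all 9 genes, 253 kb in all, the knockdown list held 7 peaks and the control list 6. Peaks covered 5454 bp in the knockdown list, with a mean width of 779 bp and a mean fold of 9.54, and 4655 bp in the control list, with a mean width of 776 bp and a mean fold of 10.7. The ratio of covered lengths was 1.17, against 0.619 over all peaks. NLRC5 held 2369 bp of the knockdown length and 650 bp of the control length, and without windows beyond 1000 bp outside the genes the ratio was 0.999. A peak of the other list overlapped 4 of the 7 knockdown peaks (57.1%, 18.4 to 90.1) and 4 of the 6 control peaks (66.7%, 22.3 to 95.7), against 82.8% and 54.2% of all peaks. For the 3 genes with a peak in both lists, the depth-scaled ratios within 1000 bp of a gene end were 0.864 at B2M, 1.21 at NLRC5 and 1.29 at TAPBP. Their median was 1.21, and no median over all genes is given here by this measure. The peaks behind all 3 values also touched a neighbouring gene. With the peak of lowest p-value anywhere in the window, the median turned to 0.875, which is the value of NLRC5 and sets its knockdown peak outside the gene against the control peak at the gene's lower-coordinate end. By that second measure, the median over 12924 genes with a peak in both lists was 0.900 (middle 50% from 0.778 to 1.06).

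In all, 7 of the 9 genes lie in a span of 3.59 Mb of chromosome 6, from 29723434 to 33314078, within the MHC, and B2M and NLRC5 lie outside it. The split by this span was chosen after the peaks were seen. All genes without a peak in either list, and both genes in the control list only, lie in this span. Peaks were sparse in the span as a whole. Of its 140 protein-coding genes, 24.3% (17.4 to 32.2) had a gene-end peak in the knockdown list and 36.4% (28.5 to 45.0) in the control list. On the rest of chromosome 6 these shares were 56.1% (52.8 to 59.4) and 59.1% (55.8 to 62.3) of 909 genes. The genes in the control list only made up 12.1% of the span genes (7.24 to 18.7), against 4.40% (3.16 to 5.94) on the rest of chromosome 6.

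**Figure D3:**
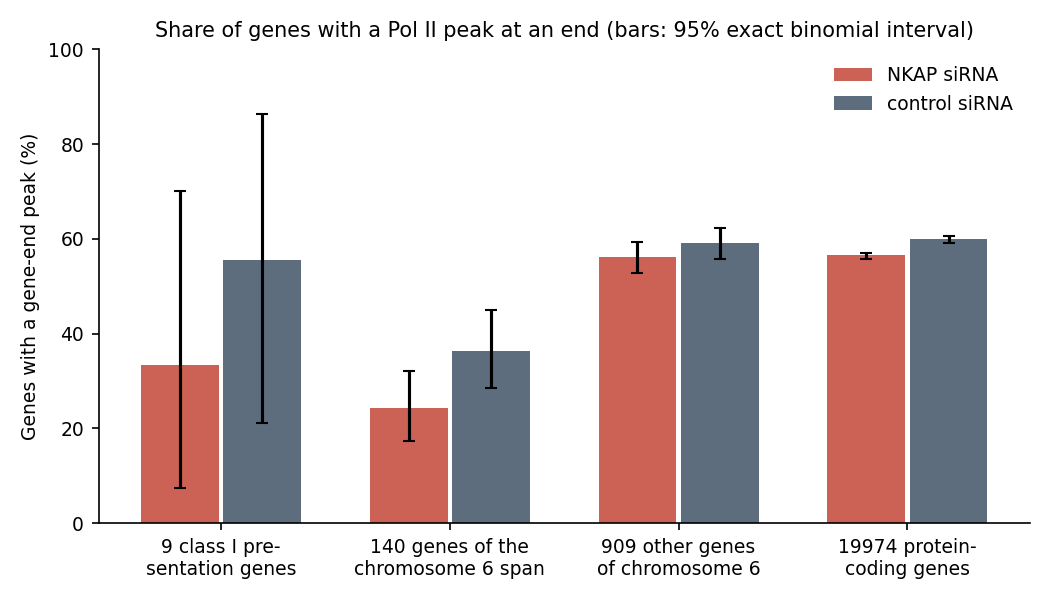
Share of genes with a peak within 1000 bp of an end (y axis, percent) in the NKAP siRNA library (left bar) and the control siRNA library (right bar). Error bars are 95% exact binomial intervals over genes. The genes of the chromosome 6 span stand at 24.3% and 36.4%, below the rest of chromosome 6 at 56.1% and 59.1%.

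The lists also held peaks on 7 alternate sequences of the MHC, which the build carries beside the primary chromosome because this region differs so much between people. These 7 sequences had 214 peaks in the knockdown list and 387 in the control list, and the primary span had 38 and 58. Over all chromosomes used, the knockdown list had 0.726 times as many peaks as the control list. The strongest summit had 53 reads in the knockdown list and 51 in the control list on the primary span, and 30 to 43 and 38 to 52 on the alternate sequences. How the aligner treated reads with equal places on the primary chromosome and an alternate sequence is not given in the sources used here. The median summit of span genes with a peak had 15.5 reads in the knockdown list and 19 in the control list, against 30 and 38 on the rest of chromosome 6. The part of the alternate sequences in the missing peaks of HLA-B, HLA-F, TAP1 and TAP2, and in the control-only peaks of HLA-C and HLA-E, was not tested. B2M and NLRC5 lie on other chromosomes.

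**Figure D4:**
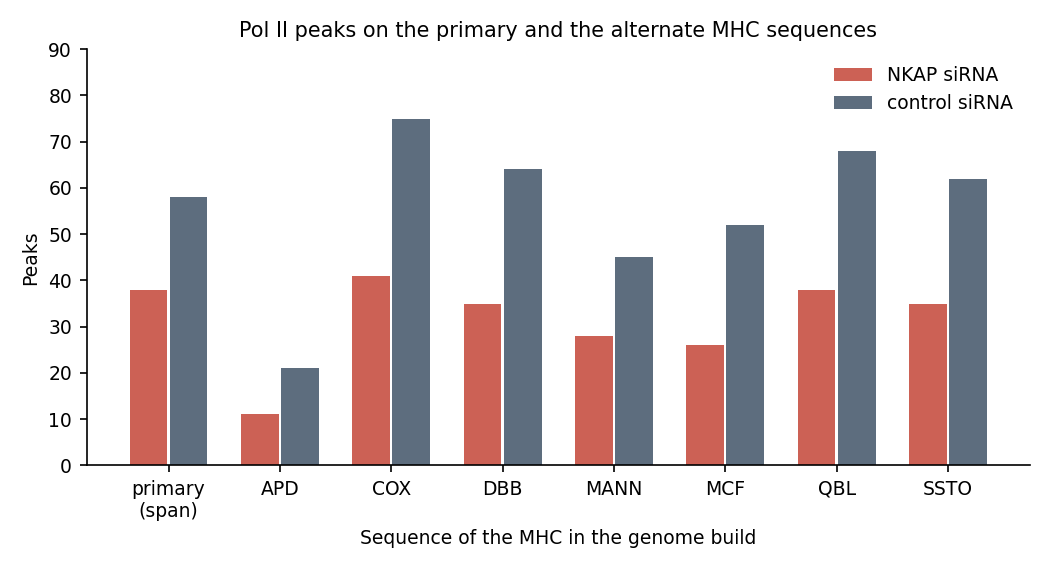
Peaks (y axis) on the primary chromosome 6 span that holds 7 of the 9 genes and on the 7 alternate MHC sequences of the build (x axis, by haplotype name), NKAP siRNA left of control siRNA. The sequences differ in length, so only the bars of 1 sequence compare with each other, and in each the knockdown library has fewer peaks. They are versions of the same region and not repeated results. Over all chromosomes used the knockdown list had 0.726 times as many peaks as the control list.

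Outside the MHC, most other genes of the pathway had a peak in both libraries. Of 26 genes of antigen processing and class I regulation, 19 had a gene-end peak in the knockdown list and 22 in the control list, all 19 among the 22. Over all protein-coding genes the shares were 56.5% and 59.9%, with 55% in both lists and 4.86% in the control list only. Of the listed genes outside the span, 18 of 21 had one in the knockdown list and 21 of 21 in the control list, and inside it 1 of 5 had one in each list. The inside gene was MICA, a stress ligand of natural killer cells, with 13 reads (15.2 scaled) in the knockdown library and 20 in the control library. MICB, HLA-G, PSMB8 and PSMB9 had no gene-end peak. Of the loading chaperones, CALR (calreticulin) had 72 reads (84.0 scaled) in the knockdown library and 124 in the control library. PDIA3 had 53 (61.8 scaled) and 76, CANX (calnexin) 28 (32.7) and 41, and the tapasin relative TAPBPL 73 (85.2) and 99.

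The genes of the promoter-module factors also had peaks in both libraries, apart from RFXAP. Knockdown reads are followed by scaled reads in brackets. NFYA, an NF-Y subunit gene, had 86 reads (100 scaled) in the knockdown library and 90 in the control library. NFYB had 37 (43.2) and 69, NFYC 86 (100) and 113, RFX5 23 (26.8) and 21, and RFXANK 29 (33.8) and 38, in the same order. IRF1, an interferon regulatory factor gene, had 63 reads (73.5) in the knockdown library and 67 in the control library. At NFYA and IRF1 the knockdown value was the lower in raw reads and the higher in scaled reads. The genes in the control list only were ERAP2, a peptide-trimming aminopeptidase (13 reads), RFXAP, an RFX subunit (14 reads), and PSME1, a proteasome activator subunit (21 reads). PSME1 had a knockdown peak within 5000 bp of the gene. By the wider window 20 of 26 genes were thus in the knockdown list and 22 in the control list. Over all protein-coding genes the shares by that window were 66.5% and 70.1%.

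Class II presentation genes, which professional antigen-presenting cells use, lie mostly in the same span of chromosome 6. A gene-end peak was found at 2 of 12 in the knockdown list and 1 of 12 in the control list. Over all protein-coding genes these shares were 56.5% and 59.9%. CIITA, the class II transactivator gene on chromosome 16, had a gene-end peak in both. Its summit had 21 reads (24.5 scaled) in the knockdown library and 31 in the control library. CD74, which encodes the invariant chain, had a gene-end peak in the knockdown list only, with 18 reads (21.0 scaled) and a fold of 7.17. The 10 class II genes of the chromosome 6 span had none in either list, where 24.3% of all span genes had one in the knockdown list and 36.4% in the control list.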

How the data were processed

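MACS2 2.1.0 and Bowtie 1.1.2, with Trimmomatic 0.33 and bcl2fastq 2.17, are listed in the submitters' processing notes, as is build hg38. The settings of these tools are not given there. The authors deposited 1 peak list for each Pol II ChIP library, called per sample. The deposited columns hold positions, a score (10 times the −log10 q-value, without decimals), the fold of the summit over background and the −log10 of the p-value and of the q-value. These are the authors' values and describe peaks within a list. No input file was used here.

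The caller's fold is (pileup + 1)/(background + 1) and its p-value is Poisson, which together gave whole reads at the summit for 99.96% of knockdown and 100.0% of control peaks (p recovered within 0.001 on the −log10 scale). The knockdown pileup had been scaled by 0.926 before calling. Depth came from the lowest background and the smallest peak width. The recovery was tested on simulated data. Genes came from RefSeq GRCh38.p14, without exons, and overlaps needed 1 bp. Python 3.11.15, scipy 1.17.1 and biopython 1.88 were used. Named genes were all 9 members, the listed pathway, class II and marker genes, and genes overlapping a window. The members and lists were chosen with earlier results of these data known.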

Additional observations from a re-analysis of the deposited data

Results flagged for a closer look

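The 7 alternate MHC sequences, which lie outside the chromosomes used for the gene counts, held 214 peaks in the knockdown list and 387 in the control list. They stand out because they carry Pol II peaks of the same region as HLA-B, HLA-C, HLA-E, HLA-F, TAP1, TAP2 and TAPBP, and made up 14% of the knockdown peaks and 17.4% of the control peaks outside chromosomes 1 to 22 and X. No annotation of these sequences was used here, so none of their peaks was assigned to a gene.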

How the results depend on the processing

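The counts for the 9 genes were computed with other windows, list lengths and thresholds. With the gene alone, without flanks, the covered length was 3247 bp (knockdown) and 2989 bp (control). With the strongest 10000 peaks of each list, 2 genes had a window peak and a gene-end peak in each list. They were B2M and TAPBP in the knockdown list and B2M and NLRC5 in the control list. The windows then held 2 peaks in each list over 2627 bp (knockdown) and 2480 bp (control). For B2M and NLRC5 alone, an alternative chosen after the data were seen, both lists had a window peak and a gene-end peak at 2 genes. The knockdown list then held 5 peaks over 4252 bp (40% overlapped) and the control list 2 over 2480 bp (100% overlapped), a covered-length ratio of 1.71. The median ratio at the peak of lowest p-value, 0.875 in depth-scaled reads, was 0.804 with the deposited fold and turned to 1.21 with gene-end peaks only. Of 103 alternative values, 89 kept within the margins set (1.5 times for counts, the counting interval for shares and ratios). Depth limits all summit values, the weakest of which rest on 10 to 13 reads. No paired analysis was possible because each group held 1 library.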
